A study of Mus musculus with 27 samples.

Results

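Of the nuclear receptors of the mouse liver, 8 were followed across diets: the bile acid receptor FXR (Nr1h4), the xenobiotic receptors PXR (Nr1i2) and CAR (Nr1i3), their shared partner RXRalpha (Rxra), the hepatocyte regulators HNF4alpha (Hnf4a) and LRH-1 (Nr5a2), the estrogen receptor ERalpha (Esr1) and the thyroid hormone receptor TRbeta (Thrb). These 8 genes, of 18194 genes that have a probe listing 1 gene symbol alone, were represented by 19 such probes among the 45101 on the Affymetrix mouse genome array. Male C57BL/6 mice, 10 weeks old and not fasted, ate 1 of 9 diets for 3 weeks, and the liver of each of 3 mice per diet was hybridized to its own array, 27 in all. The AIN-93 purified diet served as control for lab chow, a 60% fructose diet (high-fructose), a high-fat diet, a Western diet with 42% of calories from fat, an atherogenic diet that contained cholesterol and cholic acid, a diet low in n-3 fatty acids (low n-3), and a diet deficient in essential fatty acids (EFA-deficient). The authors list more sucrose in the EFA-deficient diet than in AIN-93 purified. In that diet, sugar and missing essential fatty acids cannot be told apart. Mice on diet restriction received lab chow at 75% of the amount eaten freely. Labels of the low n-3 arrays conflict, since title and diet tag give a DHA supplement and the description 7% sunflower oil, and the description was followed. Whole liver was used, so fewer cells of a type and less RNA per cell cannot be told apart. The albumin gene Alb, which defines hepatocytes, was at a mean log2 intensity between 16.17 and 16.40 in the 9 diets.

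Nuclear receptors are transcription factors that bind DNA directly and whose activity is set by small lipophilic ligands such as bile acids, steroids, thyroid hormone and foreign chemicals. FXR, PXR, CAR and TRbeta act on DNA together with RXRalpha, whereas HNF4alpha binds as a pair with itself and LRH-1 as a single molecule. In liver, FXR restrains bile acid synthesis, PXR and CAR induce enzymes and carriers that clear drugs and bilirubin, and HNF4alpha maintains the hepatocyte's own gene programme. The amount of receptor mRNA, which the arrays measure, is a separate quantity from the receptor's activity.

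All intensities are on the log2 scale. A probe counted as detected when its mean passed log2(100), which is 6.64, in at least 1 diet. By this rule 13 of the 19 probes were kept, and they covered 7 of the 8 receptors. The single Thrb probe lay at the lowest value of the data, 2.29, on 26 of 27 arrays and reached 2.40 on the other. Its signal was thus not well above background in any diet, and no comparison was made for Thrb. With 1 probe, scarce TRbeta mRNA and a probe that does not report it cannot be told apart. A receptor's value is the mean of its kept probes. Differences were tested in limma with p adjusted over 6478 genes and 8 diets together, and each is printed as the percentage of the control level with its 95% interval in parentheses, from n = 3 mice per diet. Each array is a different mouse, and the number of arrays limits the precision of every value.

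The promoters of the 3 receptors that rose together under diet restriction are shown because their mRNA moved in the same 3 livers. They are the 210 bases from 250 to 41 before the transcription start in RefSeq (GRCm38.p6), read 5′ to 3′ on the gene's strand: Nr1i3 at chr1:171213720-171213929 on the plus strand, Nr1i2 at chr16:38294865-38295074 on the minus strand, and Esr1 at chr10:4611739-4611948 on the plus strand. Capitals mark the E-box CACGTG, the only searched motif that these 3 windows held.
Nr1i3: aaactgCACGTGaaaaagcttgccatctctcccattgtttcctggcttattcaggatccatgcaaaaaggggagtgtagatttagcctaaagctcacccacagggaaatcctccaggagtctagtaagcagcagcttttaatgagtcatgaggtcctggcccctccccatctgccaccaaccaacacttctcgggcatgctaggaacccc
Nr1i2: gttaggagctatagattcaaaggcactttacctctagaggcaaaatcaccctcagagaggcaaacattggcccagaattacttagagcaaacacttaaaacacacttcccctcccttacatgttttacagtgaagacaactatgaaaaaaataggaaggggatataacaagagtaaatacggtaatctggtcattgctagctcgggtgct
Esr1: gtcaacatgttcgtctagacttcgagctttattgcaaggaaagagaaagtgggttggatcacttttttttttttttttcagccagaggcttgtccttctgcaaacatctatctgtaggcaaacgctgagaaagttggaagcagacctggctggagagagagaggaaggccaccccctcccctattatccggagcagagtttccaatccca
On both strands, the nuclear receptor half-site AGGTCA, its common variant AGTTCA, the forkhead core TGTTTA, the E-box CACGTG and the TATA box TATAAA were searched in the 13 RefSeq promoters of the 8 receptors. Of the 32851 mouse promoters in the same window, 12% held the half-site, 10.3% its variant, 10.6% the forkhead core, 4.7% the E-box and 9.6% the TATA box. The half-site was present in 4 of the 13 receptor promoters, namely those of Nr1h4, Nr5a2 and Thrb once each and of a second Rxra start, where it occurred on each strand. Only a match of letters is described here, not a binding site.

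**Figure D1:**
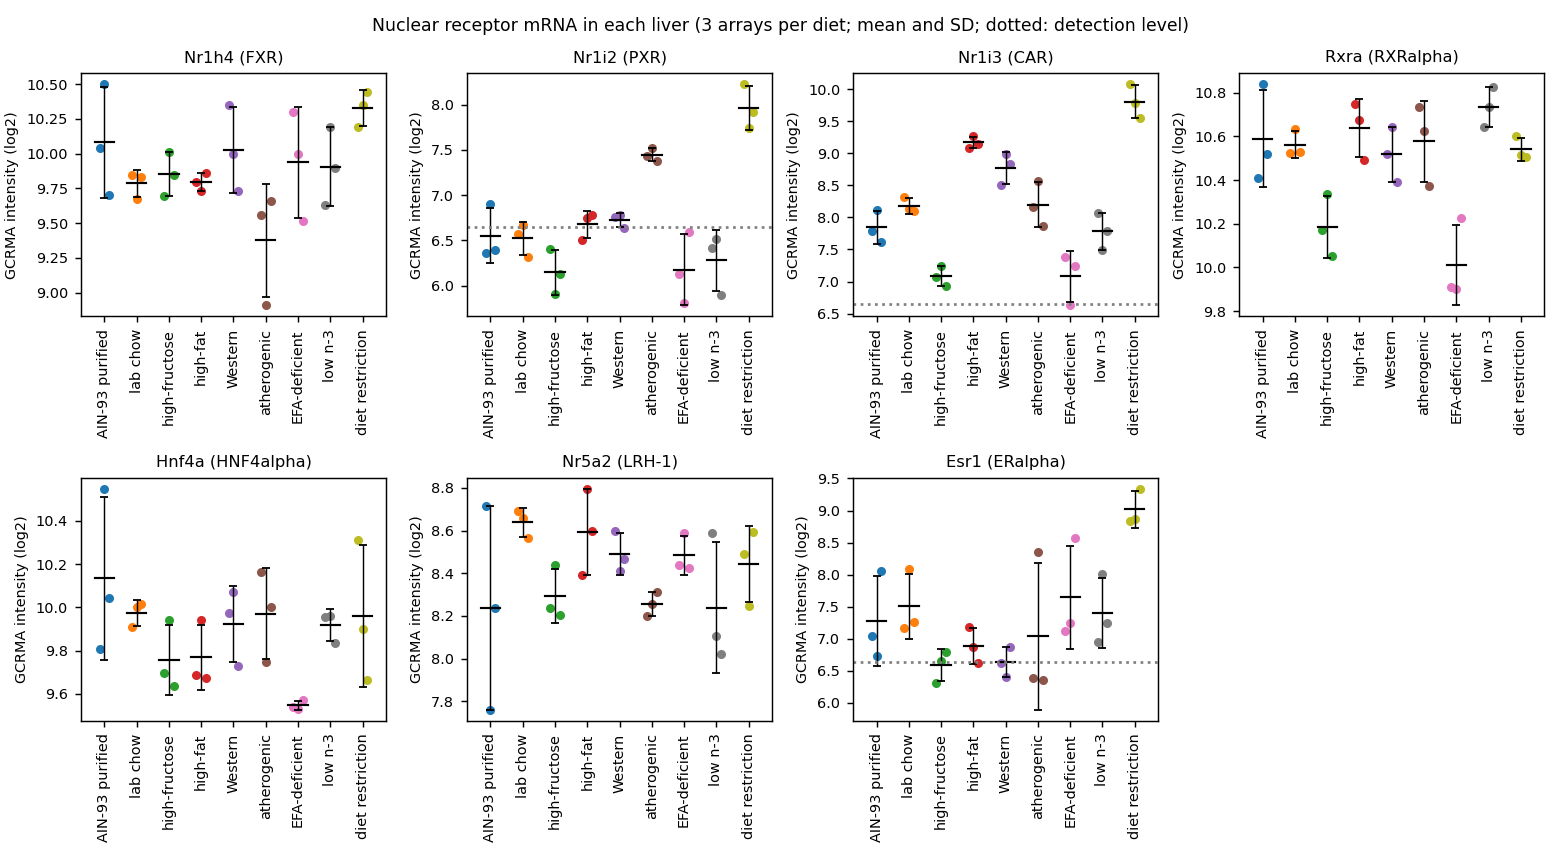
Log2 GCRMA intensity of 7 nuclear receptors in each of 27 livers by diet, with points for single arrays, horizontal lines for the diet mean, bars for the SD of 3 arrays and a dotted line at the detection level of 6.64. The 3 diet restriction arrays lie above all others for Nr1i2, Nr1i3 and Esr1, and the 3 EFA-deficient arrays lie lowest for Hnf4a.

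Diet changed the receptors in different numbers and directions. Against AIN-93 purified, diet restriction raised 3 of the 7 measured receptors (Nr1i3, Nr1i2 and Esr1) and lowered 0, whereas 13.5% of all genes rose and 16.0% fell. The atherogenic diet raised Nr1i2 and lowered Nr1h4, where 9.03% of genes rose and 5.88% fell. The EFA-deficient diet lowered 3 receptors (Rxra, Nr1i3 and Hnf4a) and raised 0, where 3.04% of genes rose and 2.47% fell.

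Nr1i3 was the single receptor raised by the high-fat diet, where 6.00% of genes rose and 3.33% fell, and by the Western diet, where 4.31% rose and 4.48% fell. High-fructose feeding lowered Nr1i3 and Rxra, and 1.17% of genes rose and 2.73% fell in that comparison. With lab chow 0 receptors passed the test in limma in either direction, and 2.02% of genes rose and 2.19% fell. In the low n-3 diet 0 receptors passed as well, and 0.340% of genes rose and 0.726% fell. At an unadjusted limma p under 0.05, 1 receptor (Nr5a2) was higher with lab chow and 0 differed in the low n-3 diet.

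Restricted mice ate the same chow in a smaller amount, so they were also compared with mice that ate lab chow freely. There the same 3 receptors, Nr1i3, Nr1i2 and Esr1, were higher and 0 were lower, against 19.2% and 17.6% of all genes. Atherogenic feeding was compared with the Western diet, and Nr1i2 was higher and Nr1h4 lower, against 11.3% and 6.50% of all genes. Across the 9 diets, a moderated F test called 5 of the 7 receptors, with 71.6% of all genes called, and the exceptions were Hnf4a (adjusted p = 0.099) and Nr5a2 (adjusted p = 0.20). Of the 36 pairs of diets, 27 differed for Nr1i3, 15 for Nr1i2, 13 for Rxra, 8 for Esr1, 3 for Nr1h4, 1 for Hnf4a and 0 for Nr5a2, against 18.7% of all gene and pair combinations. All comparisons with AIN-93 purified share its 3 arrays.

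**Figure D2:**
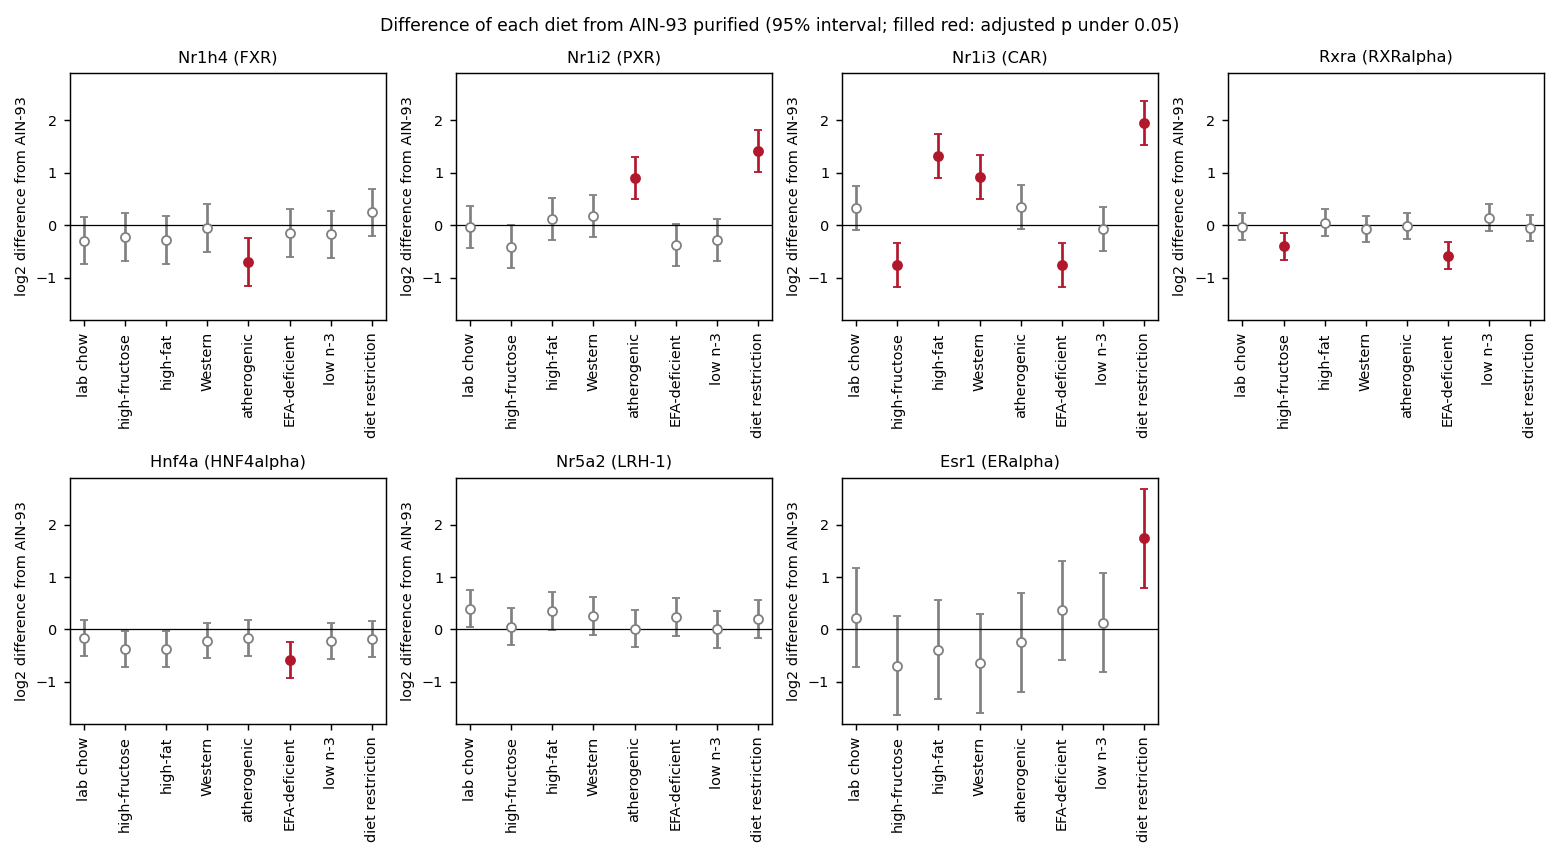
Difference of each diet mean from AIN-93 purified on the log2 scale for 7 receptors, with bars for the 95% confidence interval and filled red points where the adjusted p was under 0.05. Nr1i3 holds 5 of the 12 called differences, and none of the Nr5a2 intervals belongs to a called difference.

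Nr1i3 encodes CAR, which senses foreign chemicals indirectly and switches on the Cyp2b genes. It was the most variable of the receptors, with diet means spanning 2.72 on the log2 scale, a range wider than that of 96.0% of genes (median 0.67). The 3 AIN-93 purified livers read 7.79, 8.12 and 7.62. Diet restriction gave 10.07, 9.78 and 9.55, high-fat 9.09, 9.26 and 9.15, and Western 8.50, 8.99 and 8.83. All 9 of these values were above every control value. High-fructose livers read 7.07, 7.24 and 6.93 and EFA-deficient livers 7.38, 6.63 and 7.23. All 6 lay below every control value. Lab chow (8.32, 8.13 and 8.09), atherogenic (8.15, 8.57 and 7.87) and low n-3 (8.06, 7.49 and 7.79) livers overlapped control.

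Relative to control, Nr1i3 mRNA was 388% under diet restriction (290.4 to 519, adjusted p = 9.7e-07), 249.9% on the high-fat diet (187 to 334, adjusted p = 1.4e-04) and 190% on the Western diet (142 to 254, adjusted p = 0.0047). High-fructose and EFA-deficient diets brought it to 58.8% (44.0 to 78.6, adjusted p = 0.018) and 58.9% (44.1 to 78.8, adjusted p = 0.018). Lab chow, at 126% (94.2 to 168), atherogenic, at 128% (95.5 to 171), and low n-3, at 95.7% (71.5 to 128), did not pass the test. Against lab chow, diet restriction stood at 308% (230.5 to 412, adjusted p = 2.4e-06).

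From high to low, the diet means of Nr1i3 ran from diet restriction through high-fat, Western, atherogenic, lab chow, AIN-93 purified, low n-3 and EFA-deficient to high-fructose. Of the 8 steps between neighbours, 2 passed the test over all pairs: diet restriction above high-fat by 0.64 on the log2 scale (adjusted p = 0.031) and low n-3 above EFA-deficient by 0.70 (adjusted p = 0.018). Atherogenic livers were at 67.3% of Western ones (50.3 to 89.9, adjusted p = 0.054), which missed the threshold. Both lower calls rested on single arrays. Without AIN-93 purified replicate 2, the adjusted p was 0.098 for high-fructose and 0.099 for EFA-deficient. It was 0.063 without high-fructose replicate 3 and 0.105 without EFA-deficient replicate 2. In a fit of control and Western alone the adjusted p was 0.063 for the Western increase.

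Nr1i2 encodes PXR, the sensor of drugs, steroids and some bile acids that induces Cyp3a genes. Its level lay close to the detection level in most diets. AIN-93 purified livers read 6.36, 6.91 and 6.40, and lab chow livers 6.57, 6.67 and 6.32. Diet restriction livers read 8.23, 7.75 and 7.91, and atherogenic livers 7.43, 7.52 and 7.38. Neither of the latter groups overlapped any other diet. Western (6.76, 6.78 and 6.63) and high-fat (6.51, 6.75 and 6.78) livers overlapped control. High-fructose (6.40, 5.91 and 6.13), EFA-deficient (6.12, 5.81 and 6.59) and low n-3 (6.42, 6.52 and 5.90) livers were all under 6.64 and none of the 3 diets passed the test. These values average 2 probes, of which the brighter was over the detection level on 26 of 27 arrays.

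Nr1i2 mRNA was 266% of control under diet restriction (201 to 351, adjusted p = 3.8e-05) and 186% on the atherogenic diet (141 to 245, adjusted p = 0.0043). The control mean of 6.55 averages 2 probes with means of 7.44 and 5.67, of which only the brighter was over the detection level. Compared with lab chow, diet restriction stood at 271% (206 to 359, adjusted p = 5.9e-06). Compared with the Western diet, the atherogenic diet stood at 165% (125 to 218, adjusted p = 0.012), and without Western replicate 3 the adjusted p was 0.052. The step from diet restriction down to atherogenic, 0.52 on the log2 scale, did not pass the test over all pairs (adjusted p = 0.067), and the step from atherogenic to Western did (adjusted p = 0.011). None of the other 6 steps passed.

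Nr1i3 and Nr1i2 both rose under diet restriction, and in 5 diets 1 of them was called and the other was not. High-fructose and EFA-deficient livers had less Nr1i3, while Nr1i2 was at 75.4% (57.1 to 99.6, adjusted p = 0.20) and 77.0% (58.3 to 102, adjusted p = 0.24) of control. High-fat and Western livers had more Nr1i3, while Nr1i2 was at 109% (82.7 to 144) and 113% (85.3 to 149) of control. Atherogenic livers had more Nr1i2, while Nr1i3 was at 128%. Whether the receptors' differences from control differ from each other was not tested. Over the 27 arrays their values correlated with r = 0.75, and with r = 0.53 over the 24 arrays without diet restriction, a description that includes the shared diets.

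Nr1h4 encodes FXR, the receptor that bile acids bind. Atherogenic livers, from mice fed cholic acid, read 9.56, 8.91 and 9.66, below all control livers (10.04, 10.50 and 9.71) and all Western livers (10.35, 10.00 and 9.73). The atherogenic level was 61.4% of control (44.8 to 84.0, adjusted p = 0.044) and 63.7% of Western (46.5 to 87.3, adjusted p = 0.043). Both p-values were close to the threshold and depended on single arrays. Against control, the adjusted p was 0.080 without AIN-93 purified replicate 1, 0.22 without its replicate 2 and 0.198 without atherogenic replicate 2. With array weights the difference was -0.37 on the log2 scale (adjusted p = 0.137) against control and -0.53 (adjusted p = 0.053) against Western. Against Western, the adjusted p was 0.157 without Western replicate 1, 0.086 without its replicate 2, 0.051 without atherogenic replicate 1 and 0.24 without atherogenic replicate 2.

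Diet restriction livers read 10.19, 10.35 and 10.44 for Nr1h4, all above the lab chow livers (9.85, 9.68 and 9.83), at 145% (106 to 199), with an adjusted p of 0.057. The other diets were between 81.5% and 119% of control and overlapped it. No step between neighbours in the order of diet means passed the test for Nr1h4.

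Markers of other cells moved in the atherogenic livers. The summed linear intensity of the 12 measured Kupffer cell markers was 8701 to 15648 there, against 1315 to 6006 in the other 8 diets. Of the 9 kept markers, 4 rose and 0 fell against control, where 9.03% of all genes rose and 5.88% fell. Against Western 9 rose, where 11.3% of all genes rose. The defining Kupffer gene Clec4f had a mean log2 intensity of 9.61 in atherogenic livers and 8.47 in control. The summed intensity of 7 hepatocyte markers was 294056 to 312216 in atherogenic livers and 321082 to 330063 in control, without overlap, and 0 of the 7 passed the test against control. The part of these shifts in the Nr1h4 and Nr1i2 values was not tested. Markers of lymphocytes, cholangiocytes, adipocytes and pancreatic acinar cells had 0 kept genes. The summed intensity of 3 adipocyte markers was 16.1 to 74.6 in Western livers and at most 21.4 in the other diets. Its part in the Western receptor values was not tested.

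Rxra encodes RXRalpha, the common partner of FXR, PXR, CAR and TRbeta. Its levels were 10.41, 10.84 and 10.52 in control, 10.17, 10.34 and 10.05 on high-fructose and 9.91, 9.90 and 10.23 on the EFA-deficient diet. The latter 6 livers all lay below the control livers. Rxra was at 75.6% of control with high-fructose (63.5 to 89.9, adjusted p = 0.037) and at 67.0% on the EFA-deficient diet (56.3 to 79.7, adjusted p = 0.0033). In the other 6 diets the level was between 95.2% and 111% of control, all with overlapping arrays. Under diet restriction, where Nr1i3 and Nr1i2 rose, Rxra was at 96.7% (81.2 to 115).

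High-fructose and EFA-deficient livers were not called different from each other for Rxra (0.17 on the log2 scale, adjusted p = 0.35). EFA-deficient livers differed from all 7 remaining diets and high-fructose livers from 6 of them, the Western diet being the exception (adjusted p = 0.059). The EFA-deficient difference held without any single array. The high-fructose difference did not: the adjusted p was 0.081 without high-fructose replicate 1, 0.129 without its replicate 3, 0.20 without AIN-93 purified replicate 2, 0.063 without its replicate 3 and 0.075 with arrays centred on their medians. Only 1 of 3 Rxra probes was kept, and averaging all 3 brought the EFA-deficient difference from -0.58 to -0.28 on the log2 scale (adjusted p = 0.122).

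Hnf4a encodes HNF4alpha, which controls apolipoprotein, clotting factor and bile acid genes of the hepatocyte. The 3 EFA-deficient livers read 9.54, 9.53 and 9.57, the lowest of all 27, and control livers 9.81, 10.55 and 10.04. The level was 66.6% of control (52.6 to 84.4, adjusted p = 0.026). AIN-93 purified replicate 2 held the highest value, and without it the difference was -0.38 on the log2 scale (adjusted p = 0.17). Without EFA-deficient replicate 1 or 2 the adjusted p was 0.056 and 0.058. In the other 7 diets Hnf4a was between 77.1% and 89.6% of control, below it in each, and none passed the test. With p adjusted within the diet it was 0.055. The difference from control was the 1 pair of diets called. In EFA-deficient livers, where Rxra and Nr1i3 were lower as well, the summed intensity of sinusoidal endothelial markers was 775 to 906 against 957 to 1136 in control and that of stellate cell markers 444 to 530 against 374 to 425, although 0 markers of either list passed the test. Sinusoidal endothelial sums also lay below control with lab chow (743 to 839), low n-3 (816 to 879) and Western (904 to 919). Neither Rxra nor Hnf4a was called in those diets. The part of the EFA-deficient shifts in the receptor values was not tested.

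Nr5a2 encodes LRH-1, a regulator of bile acid and cholesterol transport genes. It was called in 0 of 36 pairs, and its diet means spanned 0.40 on the log2 scale, a range narrower than that of most genes. Control livers read 8.71, 7.76 and 8.24, with an SD of 0.48 that exceeded the whole range of diet means. Lab chow livers read 8.69, 8.66 and 8.56, at 132% of control (103 to 169, adjusted p = 0.16). The intervals of the other 7 diets ran from 77.9% to 164%, so differences up to these limits were not excluded with 3 livers per diet. Without AIN-93 purified replicate 1, the highest control liver, Nr5a2 passed the test with lab chow and with the high-fat diet.

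Esr1 encodes ERalpha, the receptor through which estrogens act on liver metabolism in both sexes. Diet restriction livers read 8.84, 8.87 and 9.34, above all 24 other livers, of which the highest, at 8.57, was fed the EFA-deficient diet. Control livers read 7.03, 6.73 and 8.06 and lab chow livers 7.17, 8.08 and 7.26. Esr1 was 334% of control (173 to 643, adjusted p = 0.017) and 285% of lab chow (148 to 549, adjusted p = 0.012). Of its 8 called pairs all 8 were diet restriction against another diet. Stellate cell marker sums were lower under diet restriction than in control, while those of Kupffer and sinusoidal endothelial cells overlapped control. The summed intensity of 7 stellate cell markers was 277 to 318 there, 374 to 425 in control and 310 to 389 with lab chow. Of 5 kept markers, 1 fell against control and 1 against lab chow. Over all genes 16.0% and 17.6% fell, so these counts were near those of all genes. Kupffer cell marker sums were 1315 to 3619 against 3321 to 4474 in control, and sinusoidal endothelial ones 789 to 1116 against 957 to 1136. Of their kept markers, 1 of 9 and 1 of 7 were lower, where 16.0% of all genes fell. Against lab chow, with sums of 1884 to 2472 and 743 to 839, 0 markers of either list were lower. The part of these shifts in the Nr1i3, Nr1i2 and Esr1 values was not tested.

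Individual livers spread more for Esr1 than for any other receptor here, with a within-diet SD of 0.60 on the log2 scale. In the atherogenic group 1 liver read 8.35 and the others 6.39 and 6.36 (SD 1.14). The diets other than diet restriction ranged from 62.1% to 129% of control, each with intervals that included 100%. Against control, the adjusted p was 0.059 without AIN-93 purified replicate 1, 0.088 without its replicate 2 and 0.063 without diet restriction replicate 3. With no filter on low values, which averages a probe at the floor into Esr1, the difference was 1.16 on the log2 scale (adjusted p = 0.062). Against lab chow the adjusted p was 0.0505 without lab chow replicate 1 and 0.051 without diet restriction replicate 3.

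Receptors with several kept probes were compared probe by probe. Both Nr1i2 probes rose in the atherogenic and diet restriction livers and correlated over arrays with r = 0.95. The dimmer probe passed the detection level only on the 3 diet restriction arrays. It was thus kept through that diet alone and gives no separate support for the rise there. In atherogenic and control livers it lay under the detection level on every array. Both Esr1 probes, with r = 0.91, were highest under diet restriction, and the brighter was at 367% of control (adjusted p = 0.0091). The dimmer Esr1 probe was over the detection level on 8 of 27 arrays. All 3 Hnf4a probes were lowest in the EFA-deficient livers, with r of 0.58 to 0.69 among them, and the brightest passed the test on its own at 69.1% of control (adjusted p = 0.029). Of the 3 Nr5a2 probes, the dimmest was called with lab chow at 146% of control (adjusted p = 0.031), where the gene's mean was not. None of the 6 probes left out by the filter was called in a fit on all probes.

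**Figure D3:**
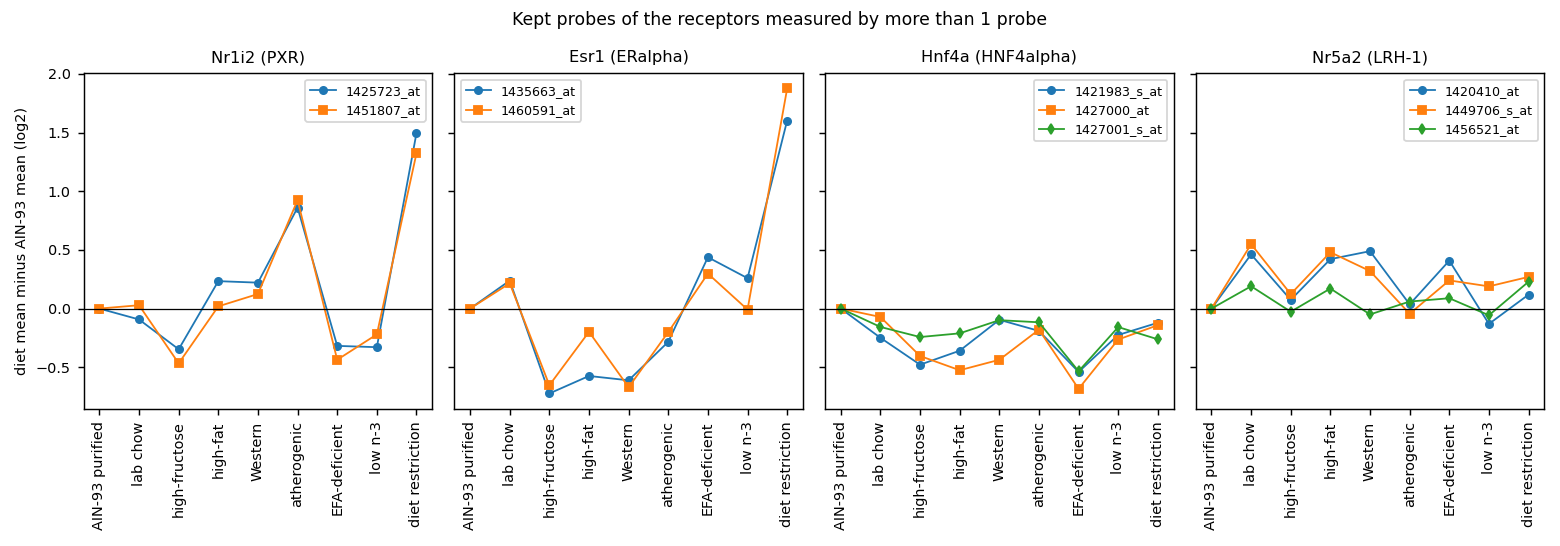
Diet mean minus AIN-93 purified mean on the log2 scale for the kept probes of the 4 receptors with more than 1, with 1 line per probe. The Nr1i2 and Esr1 probes share their peak under diet restriction, all Hnf4a probes have their lowest point in the EFA-deficient diet, and the Nr5a2 probes differ among themselves.

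Genes whose values tracked a receptor most closely over the 27 arrays were listed without a test, since all points share diets. For Nr1h4 they were the bile acid carrier Slc10a1 (r = 0.79), Cnmd (0.77) and Klb (0.76), the co-receptor for FGF15 and FGF21. For Nr1i3 they were the alanine aminotransferase Gpt (0.91), the cytochrome b5 gene Cyb5a (0.90) and the vitamin E transfer protein Ttpa (0.90), and without the diet restriction arrays r stayed between 0.84 and 0.92. For Nr1i2 they were D630004K10Rik (0.92), Slc8b1 (0.92) and Tm4sf4 (0.92). For Esr1 they were the pentraxin gene Apcs (0.81), Rdh16f2 (0.80) and Mst1 (0.80), and r for Rdh16f2 was 0.57 without diet restriction.

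The highest r of Rxra, Nr5a2 and Hnf4a, whose diet means spanned least, was below that of every other measured receptor, for Nr5a2 only slightly. Rxra was tracked by Ube2q1 (r = 0.75), Zdhhc6 (0.74) and Azgp1 (0.73), and Nr5a2 by Gas1 (0.78), Fam13a (0.71) and Fads6 (0.69). Hnf4a was tracked by St3gal4 (0.66), by Rxra itself (0.65) and by Spast (0.65). That pair, Hnf4a and Rxra, was the second most alike among the receptors after Nr1i3 and Nr1i2 over all arrays. Without diet restriction it was the most alike, with r = 0.68, followed by Nr1i3 and Rxra with 0.64.

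Known target genes and partners of the receptors were counted in lists. Cyp8b1, Cyp7a1, Slc10a1, Abcc2, Nr0b2, Baat and Apoa1 each stand in more than 1 list, so the counts of different lists are not independent. The shares of all genes called in each comparison are those given with the receptors above. Of 24 kept CAR and PXR targets, 16 rose and 0 fell under diet restriction against control, with a median difference of 1.15 on the log2 scale (-0.03 over all genes). Cyp2b10, the classic CAR target, was not well above background in control and at least 6.44-fold higher under diet restriction (adjusted p = 1.7e-13). The glutathione transferase Gstm3 was 1715% of control (adjusted p = 3.4e-07) and the bilirubin carrier Abcc3 466% (adjusted p = 3.7e-05).

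Lab chow livers had as many targets raised as diet restriction, 16 of 24 with 0 lowered and a median of 0.70, although Nr1i3 and Nr1i2 were not called there. Cyp2c55 was at least 2.63-fold higher with lab chow (adjusted p = 7.5e-08), Abcc3 was 406% of control (adjusted p = 1.1e-04) and Gstm3 402% (adjusted p = 0.0019). Cyp2b10 counts among the 16, but no fold is given, since its mean was 5.31 with lab chow and 2.30 in control, both under the detection level. Against lab chow, diet restriction raised 8 targets and lowered 3, with a median of 0.18. Among the 8, Cyp2b10 had a mean log2 intensity of 9.33, against the 5.31 of lab chow that is under the detection level (adjusted p = 6.8e-10), the carrier Slco1a4 was 683% of lab chow (adjusted p = 7.4e-04) and the sulfotransferase Sult1d1 353% (adjusted p = 1.8e-06).

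High-fat and Western livers, in which Nr1i3 rose, had 8 and 6 CAR and PXR targets raised and 0 lowered, and the atherogenic livers, in which Nr1i2 rose, had 9 raised and 0 lowered. With quantile normalization again the high-fat count was 6. Abcc3 rose in all 3, to 353%, 343% and 314% of control (adjusted p = 3.6e-04, 4.8e-04 and 9.9e-04). Cyp2c37 was 206% of control with high-fat (adjusted p = 0.0024) and 199% with Western (adjusted p = 0.0036), whereas Gstm3 was 668% with atherogenic feeding (adjusted p = 6.7e-05). High-fructose and EFA-deficient livers, in which Nr1i3 fell, had 1 target raised each, and 1 and 0 lowered. Slco1a4 was the lowered gene, at least 1.13-fold lower with high-fructose (adjusted p = 0.014).

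**Figure D4:**
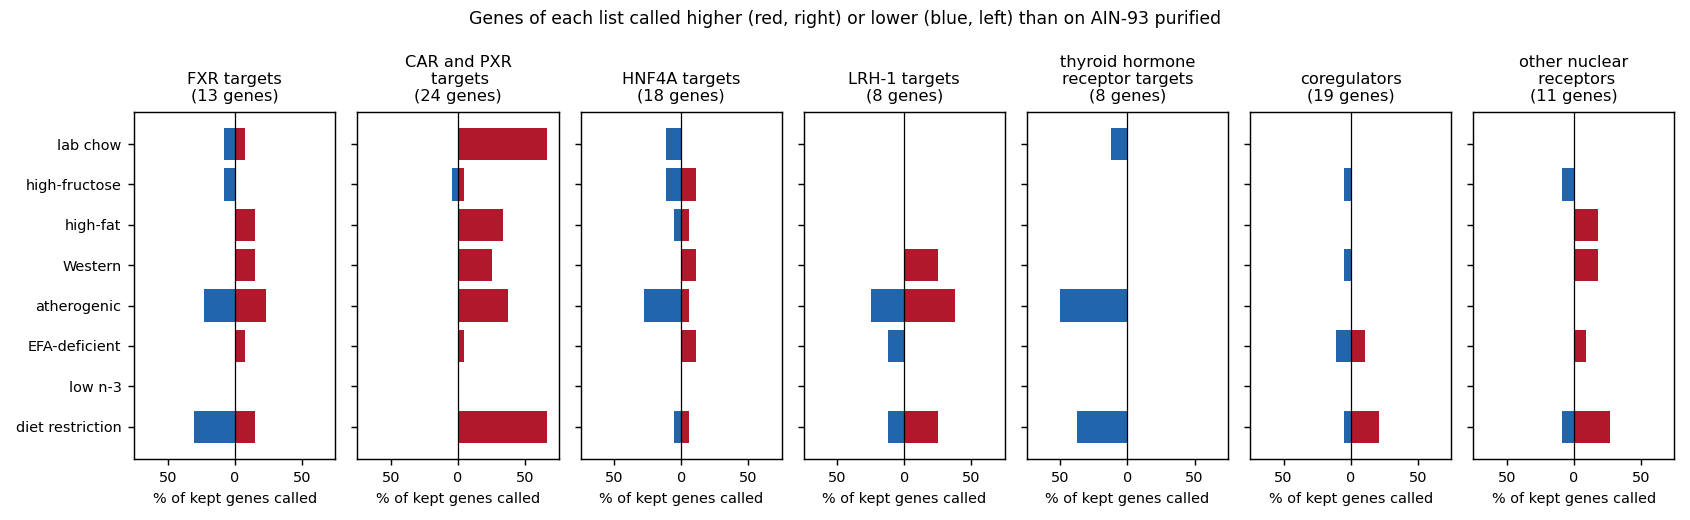
Share of the kept genes of 7 lists that were called higher (red bars, to the right) or lower (blue bars, to the left) than AIN-93 purified in each diet, in percent, with the number of kept genes above each panel. CAR and PXR targets have their longest bars with lab chow and diet restriction, 16 of 24 genes each, and thyroid hormone receptor targets have bars to the left alone.

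FXR targets moved in both directions. The list holds bile acid synthesis genes, which FXR restrains, beside other targets, and its counts and median mix them. Of 13 kept genes, 3 rose and 3 fell in atherogenic livers, in which Nr1h4 itself was lower. There 9.03% of all genes rose and 5.88% fell, and the median difference of the list was 0.10 on the log2 scale. Cyp8b1, the sterol 12-alpha-hydroxylase of cholic acid synthesis, was at least 40.9-fold lower than control (adjusted p = 1.2e-11), and Cyp7a1, the rate-limiting enzyme of bile acid synthesis, at least 2.53-fold lower (adjusted p = 0.035). The uptake carrier Slc10a1 was at 38.0% (adjusted p = 6.0e-06), while the phospholipid exporter Abcb4 was at 215% of control (adjusted p = 5.2e-05). Compared with the Western diet the bile salt export pump Abcb11 was at 211% (adjusted p = 1.3e-06). Under diet restriction 2 FXR targets rose, a share near the 13.5% of all genes, and 4 fell against control, where 16.0% of all genes fell. Among those that fell were Cyp8b1 at 16.2% (adjusted p = 1.7e-04) and Abcb11 at 60.2% (adjusted p = 1.1e-04).

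HNF4A targets, 18 kept genes, had 2 raised and 0 lowered in EFA-deficient livers, where 3.04% of all genes rose and 2.47% fell. Hnf4a was lower there, and the median difference of the targets was -0.07 on the log2 scale. The raised genes were Apoa4 at 613% of control (adjusted p = 6.4e-05) and Apoc2 at 184% (adjusted p = 0.0039), both apolipoprotein genes. The atherogenic diet lowered 5 and raised 1, where 5.88% of all genes fell and 9.03% rose. Among the lowered was the clotting factor gene F11 at 43.6% (adjusted p = 4.9e-04). LRH-1 targets, 8 kept genes, had 3 raised and 2 lowered with atherogenic feeding, where 9.03% of all genes rose and 5.88% fell. The Western diet raised 2 and lowered 0, where 4.31% of all genes rose and 4.48% fell. Diet restriction raised 2 and lowered 1, where 13.5% of all genes rose and 16.0% fell. Nr5a2 was not called in any of these diets. The sterol exporter genes Abcg5 and Abcg8 were at 1183% and 1012% of control in atherogenic livers (adjusted p = 8.0e-09 and 2.1e-08), and at 350.0% and 304% under diet restriction (adjusted p = 9.3e-05 and 3.5e-04).

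Thyroid hormone receptor targets, 8 kept genes, were lowered in 4 cases by the atherogenic diet, in 3 by diet restriction and in 1 by lab chow, and raised in 0 cases, while the Thrb probe itself was not well above background. Over all genes, 5.88%, 16.0% and 2.19% fell with these diets, in the same order. The median difference of the targets was -0.87 on the log2 scale with the atherogenic diet and -1.30 under diet restriction. Against lab chow, diet restriction lowered 2 targets and raised 0, where 17.6% of all genes fell, with a median of -0.12. The deiodinase Dio1, which converts thyroid hormone, was at 17.8% of control under diet restriction (adjusted p = 5.1e-05) and at 40.6% with atherogenic feeding (adjusted p = 0.020). Thrsp, a lipogenic gene, was at 19.9% with atherogenic feeding (adjusted p = 0.011). Of 4 estrogen receptor targets 1 was kept, Lifr, which was at 41.9% of control under diet restriction (adjusted p = 0.021).

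Coregulators are the proteins that receptors recruit. Of 19 kept genes, 4 rose and 1 fell under diet restriction against control, where 13.5% of all genes rose and 16.0% fell, so the count called was near that of all genes. Against lab chow 8 rose and 2 fell (6 and 2 with arrays centred on their medians), where 19.2% of all genes rose and 17.6% fell. Ppargc1a, which encodes the coactivator PGC-1alpha, had a mean log2 intensity of 8.75 under diet restriction, against 6.13 in control and 5.70 with lab chow, both under the detection level (adjusted p = 2.4e-05 and 7.6e-07), and Ppargc1b was at 271% of control (adjusted p = 5.3e-04). In EFA-deficient livers Ppargc1b was at least 1.01-fold lower (adjusted p = 1.4e-04).

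Among 40 other nuclear receptors, 36 had a probe and 11 were kept. Ppara, the fatty acid receptor, was at 198% of control with high-fat, 220% with Western and 224% under diet restriction (adjusted p = 0.0010, 2.4e-04 and 1.8e-04). Ppara was at 53.8% of the Western level in atherogenic livers (adjusted p = 0.0017). Diet restriction raised 3 of the 11 and lowered 1 against control, where 13.5% of all genes rose and 16.0% fell. The clock gene Nr1d2 was at 366% (adjusted p = 0.018), Rora at 164% (adjusted p = 0.0097) and Nr2f6 at 70.1% (adjusted p = 0.0036). With high-fructose the glucocorticoid receptor Nr3c1 was at 69.7% (adjusted p = 0.042), a call that was absent with arrays centred on their medians.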

How the data were processed

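Liver RNA of 27 mice, 3 per diet, was measured on Affymetrix mouse genome arrays. Log2 intensities were deposited by the authors after GCRMA, which corrects background by probe sequence, normalizes by quantiles and summarizes each probe set. Of 45101 probe sets, 34958 list 1 gene symbol in the platform annotation, 932 several and 9211 none, and only the first kind entered gene values. GCRMA sets absent signals to a common floor (2.29), and array medians were 2.42 to 2.48, so low values carry little information. The depth of arrays cannot be given, and precision is limited by 3 mice per diet.

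Probe sets with a mean over log2(100) in at least 1 diet were kept (10582, of which 9523 list 1 symbol) and averaged per symbol to 6478 genes. limma 3.58.1 in R 4.3.3 was fitted to all arrays with diet as the term. Benjamini-Hochberg adjustment ran over all genes and the 8 diets together against AIN-93 purified, over all genes for diet restriction against lab chow, for atherogenic against Western and for the F test, and over all genes and 36 pairs of diets for pairs. The threshold was 0.05. A gene whose kept probe sets all lay under the detection level on every array of 1 group is given as at least a fold, against that level or its own value where higher. Promoters are from RefSeq (GRCm38.p6). Alternatives covered the filter, scaling, probe averaging, prior, array weights, adjustment, replicate block and each array left out. The code was tested on simulated data. The receptors and lists were chosen with earlier results of these data known. All 8 receptors are named, and from each list up to 4 called genes per comparison with the largest differences, and the 3 genes most correlated with each receptor.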

Additional observations from a re-analysis of the deposited data

How the results depend on the processing

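Over 17 called receptor differences and 307 values under alternatives, the direction never reversed, 254 kept the call and 53 lost it. The 6 that kept it under every alternative were Nr1i3 with the high-fat diet, Nr1i2 with the atherogenic diet, and both under diet restriction against control and against lab chow. Without the filter on low values, which tests 18194 genes and averages probe sets near the floor into Rxra, Esr1, Nr5a2 and Hnf4a, 0 receptors were called with high-fructose, 1 with atherogenic, 0 with EFA-deficient, 2 under diet restriction (without Esr1), 1 in atherogenic against Western and 3 across the 9 diets. Fitted to each pair of diets alone, with fewer samples, the counts were 0 for high-fructose, 0 for Western, 1 for atherogenic, 0 for EFA-deficient and 1 for atherogenic against Western. With the diet restriction arrays left out of the fit, an alternative chosen after seeing the data, they were 1 for high-fructose, 1 for atherogenic, 1 for atherogenic against Western and 3 across the diets. For high-fructose the count was 1 with arrays centred on medians, 1 with all probe sets averaged and 0 with p adjusted within the diet, which also ended the Hnf4a call with EFA-deficient (2 receptors called). Array weights called 1 receptor with lab chow, Nr5a2, added Esr1 with high-fructose and atherogenic, and ended the Nr1h4 calls with atherogenic against control and against Western. Apart from the filter, the pairs alone and the left-out arrays, the cause was not tested.

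With 1 array left out at a time, the counts of receptors ranged from 0 to 1 with lab chow, 0 to 2 with high-fructose, 1 to 2 with high-fat, 1 to 2 with atherogenic, 1 to 3 with EFA-deficient, 2 to 3 under diet restriction against either control, 1 to 2 in atherogenic against Western and 4 to 6 across the diets.

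Deviations from the diet means correlated little between same-numbered arrays of different diets (mean r 0.035, -0.27 to 0.41 over 108 pairs). For different numbers the mean r was -0.018 (-0.38 to 0.33 over 216 pairs). The numbers were not used as pairs, although such a mean over all genes cannot exclude a link between same-numbered mice. With the replicate number as a block, 1 receptor (Nr1i2) was called with atherogenic and 1 in atherogenic against Western, because Nr1h4 had an adjusted p of 0.053 and 0.051.

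Counts over all genes also moved. Lab chow called 273 genes and 913 with array weights, high-fructose 253 and 649, low n-3 69 and 296, and atherogenic 966 and 1801. With p adjusted within the diet, high-fructose called 40 genes and EFA-deficient 192 in place of 357. With 3 mice per diet, receptors near the detection level or with a wide spread, such as Esr1, allow wide intervals, and Thrb could not be assessed.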
